A study of Mus musculus with 12 samples.

Results

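Sialomucins are proteins thick with O-linked sugars that end in sialic acid, and some of them carry a sugar epitope that lymphocytes bind as they home to a node. The genes examined here are 6 such scaffolds of mouse lymph node vessels, chosen by symbol: Glycam1, Cd34, Podxl (podocalyxin), Emcn (endomucin), Cd300lg (nepmucin) and Madcam1. They are 6 of the 32285 genes counted, and they held 1469524 of the 546864924 UMIs in cells (0.269%), where a UMI marks 1 captured RNA molecule. In the libraries of the CD31 fraction they held between 0.264% and 1.67% of UMIs, and in those of the CD45 fraction between 0.00506% and 0.0170%.

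The study measured single-cell RNA in 12 lymph node libraries from C57BL/6 mice aged 7 to 10 weeks. All mice carried floxed Atg12, a gene that autophagy needs, and all received tamoxifen 5 times. The labels call each library negative or positive for CDH5 CreER, a tamoxifen-inducible Cre recombinase under the promoter of VE-cadherin, which is active in blood and lymphatic endothelium alike. Nodes were taken after solvent alone on shaved abdominal skin (vehicle), or 3 or 7 days after 4% oxazolone, a contact sensitiser that inflames skin. Cells held on beads against CD45 (the CD45 fraction, labelled immune cells) and cells not held (the CD31 fraction, labelled endothelial cells) were then sorted by flow cytometry. Each combination of label, treatment and fraction is 1 library, and the number of mice behind it is not given, so p-values here measure the spread between libraries. Unless a sentence says otherwise, 6 values in a row are those of the CD31 libraries in the order vehicle Cre-negative, vehicle Cre-positive, day 3 Cre-negative, day 3 Cre-positive, day 7 Cre-negative and day 7 Cre-positive. A level is given as CPM, the UMIs of a gene per 1000000 UMIs summed over the cells of 1 class in 1 library, and levels are compared between classes for 1 gene at a time.

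Cells were grouped by clustering that left out the 6 members, and clusters were named from marker genes. Of the classes used below, HEV-like stands for 1 cluster, number 5, of 3015 cells. Its 10 leading genes held 1 marker of the HEV list, Fut7, and 2 of the venous list, Ackr1 and Selp, so statements on HEV-like cells are statements on cluster 5. High endothelial venules (HEVs) are the venules through which lymphocytes enter a node. That cluster split into a Nxph1-Chst4 subset of 1574 cells and a Serpinb1a-Sele subset of 1129 cells at a finer resolution. These names are working labels: against the rest of the cluster the first was led by Glycam1 and Ccl21a. The second was led by Prnd and Rgcc, and shared Prnd, Aplnr and Piezo2 with the leading genes of the separate Prnd-Aplnr class. The other blood vessel classes were capillary-like (6588 cells), arterial-like (2723) and 3 clusters known by their leading genes, Prnd-Aplnr (5114), Penk-Itm2a (3400) and Hspb1-Atf3 (2151). The same finer resolution split off a venous-like class of 265 cells, which are part of the HEV-like cluster and of its levels below. Lymphatic vessels of the subcapsular sinus gave a floor-like class (1461 cells) and a ceiling-like class (2671), beside a Lyve1-Marco class (686). Fibroblast-like cells (8650) were studied in the CD45 libraries, where their clusters lay. Atg12 itself measured 52.3, 73.9, 46.4, 60.7, 51.3 and 64.4 CPM in blood endothelial-like cells, and was higher in each library labelled Cre-positive than in its Cre-negative partner. In T cell-like cells of the CD45 libraries it was also higher in each Cre-positive library, at 47.3, 48.3, 46.2, 54.2, 47.0 and 50.1 CPM in the same order. Where the deleted part lies relative to the counted 3′ ends was not examined. These UMIs therefore do not check the deletion, and libraries are named by their labels.

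In background, the scaffolds differ in kind. Glycam1 is a small secreted mucin of HEVs and milk. Cd34, Podxl and Emcn span the membrane, and Cd34 and Podxl are related proteins that bind cytoplasmic linkers of the cortex. Cd300lg joins a mucin-like stem to an immunoglobulin domain, and Madcam1 joins one to the domains that hold the integrin alpha4 beta7. HEV cells turn such proteins into homing ligands with a fucosyltransferase (Fut7) and sulfotransferases (Chst4, Chst2), without which the scaffold RNA alone makes no full ligand.

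Glycam1 and Madcam1 were the members whose RNA stood high in floor lymphatic-like cells, and the 250 bases before their gene starts are shown for that reason. They are RefSeq sequences of GRCm38.p6, each written 5′ to 3′ on the strand of its gene. Capitals mark matches to the ETS core AGGAAG on either strand and, in Madcam1, to 2 copies of an NF-kB-like GGGNNNNNCC.
Glycam1, chr15:103565082-103565331, minus strand: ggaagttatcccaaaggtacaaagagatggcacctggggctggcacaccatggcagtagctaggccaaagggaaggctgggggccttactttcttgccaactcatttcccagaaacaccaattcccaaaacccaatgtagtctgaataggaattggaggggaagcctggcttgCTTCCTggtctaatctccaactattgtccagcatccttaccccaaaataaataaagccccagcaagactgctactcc
Madcam1, chr10:79664309-79664558, plus strand: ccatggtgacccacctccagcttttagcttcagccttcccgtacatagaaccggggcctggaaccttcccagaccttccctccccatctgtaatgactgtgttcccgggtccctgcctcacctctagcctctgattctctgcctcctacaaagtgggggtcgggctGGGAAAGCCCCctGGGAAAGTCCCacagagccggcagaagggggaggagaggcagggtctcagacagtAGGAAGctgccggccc
The Glycam1 window held 1 ETS core, 77 bases before the start, and no match to GGGNNNNNCC. The Madcam1 window held 1 ETS core, 16 bases before the start, and 5 overlapping matches to GGGNNNNNCC that began 70 to 84 bases before it. Over 32851 such windows of the genome, searched on both strands, 29.5% held the ETS core and 45.8% the NF-kB pattern, so either match is common. The Cd34 window held 1 match of each kind and the Emcn window 2 ETS cores and no match to GGGNNNNNCC. TATAAA, in 12.4% of windows, was in none of these 4. TNAAGTG (10.1% of windows) matched Cd34 alone and AGGTCA (4607 of the windows) Emcn alone.

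The levels of the scaffolds differed between kinds of vessel. HEV-like cells were high in Glycam1 and had more Cd34 than capillary-like cells, which were higher in Cd300lg, Podxl and Emcn. Arterial-like cells had more Cd34 and Podxl than capillary-like cells and less Cd300lg. Lymphatic cells had little Cd34, and their floor-like class carried Glycam1 and Madcam1. Over 4 pairs of classes, 20 of the 24 member comparisons had the same sign in all 6 libraries and passed an exact two-sided sign-flip test. The exact sign-flip test cannot give a p below 0.0312, and each of the 20 had that p and an exact p of 0.0375 after adjustment over the 24 tests.

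HEV-like cells exceeded capillary-like cells in Glycam1 by 8.43 ± 0.87 on the log2 scale (SD over 6 libraries) and in Cd34 by 1.57 ± 0.18. They were lower in Podxl, with a difference of -2.53 ± 0.46, in Cd300lg, with -1.96 ± 0.43, and in Emcn, with -0.58 ± 0.15. Madcam1 did not pass (0.26, exact sign-flip p = 0.656). These 5 of 6 members stand beside 60.1% of 13746 genes (those with a mean of at least 1 CPM in either class) that lay on one side in every library, so a difference between these classes was common. Arterial-like cells exceeded capillary-like cells in Cd34 by 1.53 and in Podxl by 1.22, and were lower in Cd300lg (-1.87) and Madcam1 (-2.22), all on the log2 scale. The Madcam1 difference did not pass in cells of at least 2000 UMIs (-1.90, adjusted p = 0.136 by the exact sign-flip test). For that pair 33.5% of 13548 genes lay on one side throughout. Glycam1 (-0.40, adjusted p = 0.130 by the exact sign-flip test) and Emcn (-0.23, adjusted p = 0.0714 by the same exact test) did not pass, while Emcn did with doublets kept (-0.40, adjusted p = 0.0375 by that exact test).

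**Figure D1:**
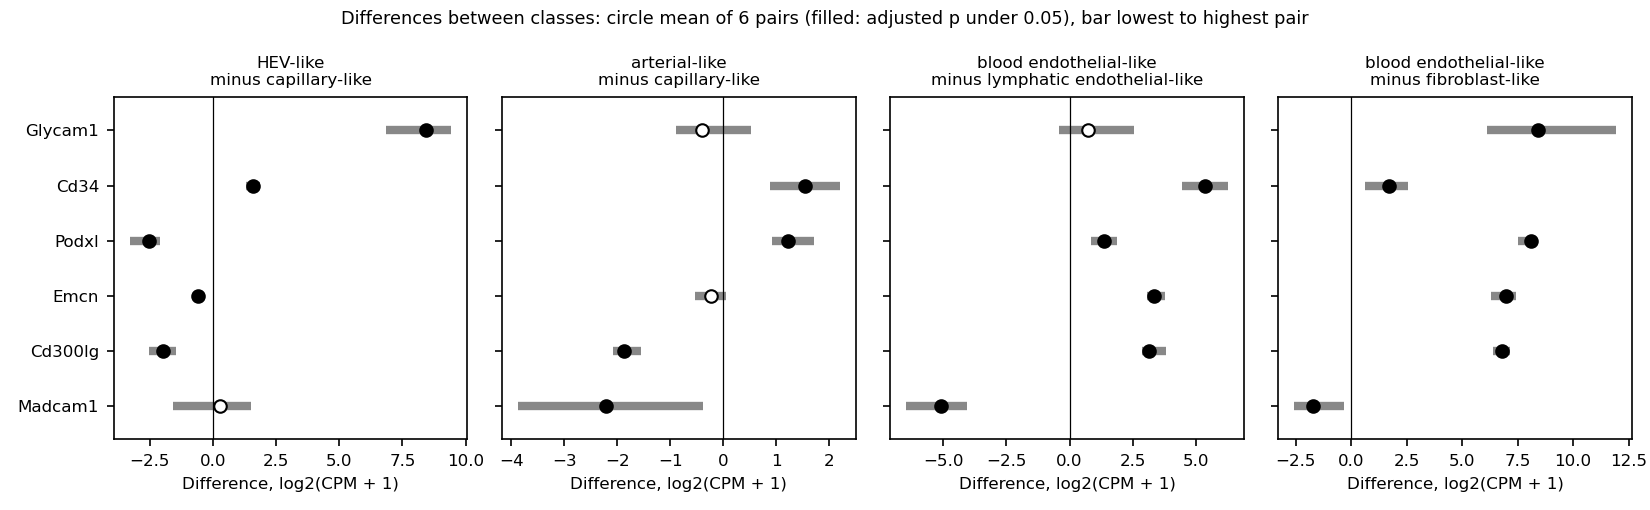
Difference in log2(CPM + 1) between 2 cell classes of the same library (of matched CD31 and CD45 libraries for fibroblasts), for each member and 4 pairs of classes. Points are means over 6 libraries and lines run from the lowest to the highest library; filled points had an adjusted p under 0.05 in the exact sign-flip test, which 20 of 24 did.

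Blood and lymphatic endothelium differed in 5 members. Summed blood endothelial-like cells exceeded summed lymphatic endothelial-like cells by 5.37 in Cd34, 3.34 in Emcn, 3.15 in Cd300lg and 1.38 in Podxl on the log2 scale. Madcam1 went the other way, with -5.11. Glycam1 had RNA on both sides of this pair and did not pass (0.71, adjusted p = 0.130 by the exact sign-flip test). The background here was 54.8% of 14454 genes. Against fibroblast-like cells of the CD45 libraries, blood endothelial-like cells were higher in Glycam1 (8.42), Podxl (8.10), Emcn (6.99), Cd300lg (6.81) and Cd34 (1.69), and lower in Madcam1 (-1.73). Podxl was at most 0.452 CPM in fibroblast-like cells, so the size of its difference depends on the 1 CPM added to each level. For that pair, which also crosses the sorted fractions, 67.3% of 15128 genes lay on one side in all 6 pairs of libraries.

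**Figure D2:**
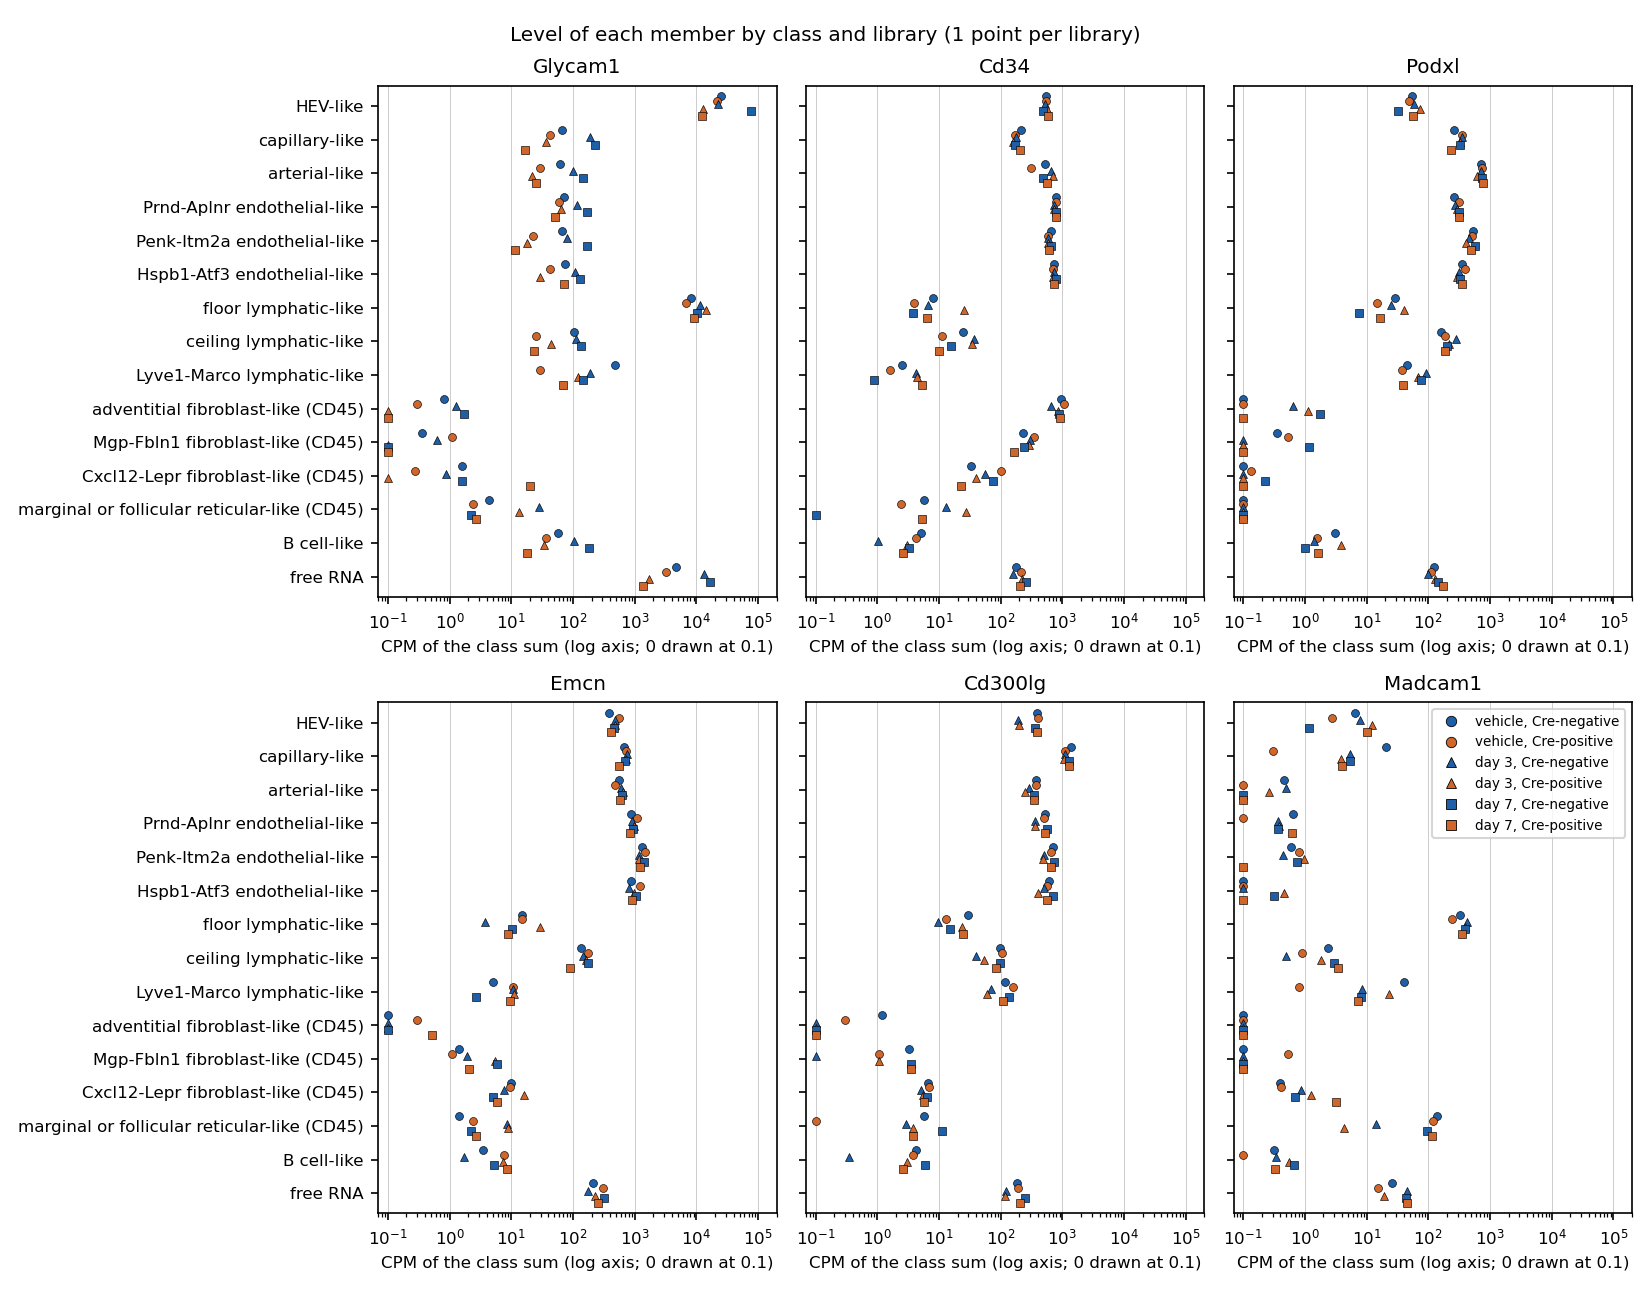
Level of each member (CPM, log axis) in the cell classes, with 1 point per library and a level of 0 drawn at 0.1. Madcam1 points of the floor lymphatic-like class run from 243 to 418, and Cd34 points of that class from 3.73 to 25.6.

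Glycam1 (ENSMUSG00000022491, GRCm38 chromosome 15, 103562759 to 103565081, minus strand) measured 24606, 21561, 22019, 12826, 76236 and 12419 CPM in HEV-like cells. The Cre-negative library of day 7 was the highest and the libraries labelled Cre-positive of days 3 and 7 the lowest. In the Nxph1-Chst4 subset it measured 33793, 30134, 30844, 21939, 97128 and 21557 CPM, and in the Serpinb1a-Sele subset 9984, 2199.8, 4676, 3131, 11122 and 2046 CPM. The first subset was higher in 6 of 6 libraries, by a mean of 2.93 on the log2 scale; pieces of 1 cluster were split by expression, so no test is given between them. Venous-like cells were far below, at 537, 1261, 773, 519.6, 1281 and 2129 CPM, although 2 of those libraries held only 22 and 19 such cells. The HEV-like cells left without them exceeded them by a mean of 4.65 on the log2 scale, and capillary-like minus venous-like was -3.82. Differences from venous-like cells were taken over the whole finer cluster, of which a few cells lay outside the HEV-like one.

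Within the HEV-like class, Glycam1 was spread unevenly between cells. A UMI of it was seen in 84.5%, 77.8%, 86.2%, 79.7%, 90.7% and 80.1% of HEV-like cells, and in 56.4% to 74.1% when each cell was thinned to 1000 UMIs. Among B cell-like cells, a type with no known use of the gene, 4.40% to 38.5% had a UMI of it, or 1.68% to 16.2% after thinning. The richest 10% of HEV-like cells held 64.8% to 79.9% of the UMIs of Glycam1 in that class. Single HEV-like cells with over 10% of all their UMIs from this gene made up 3.42%, 4.04%, 4.33%, 1.23%, 18.2% and 1.03% of the class, and the highest cell reached 42.3%. That share was several times higher in the Cre-negative library of day 7 than in each of the other libraries.

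**Figure D3:**
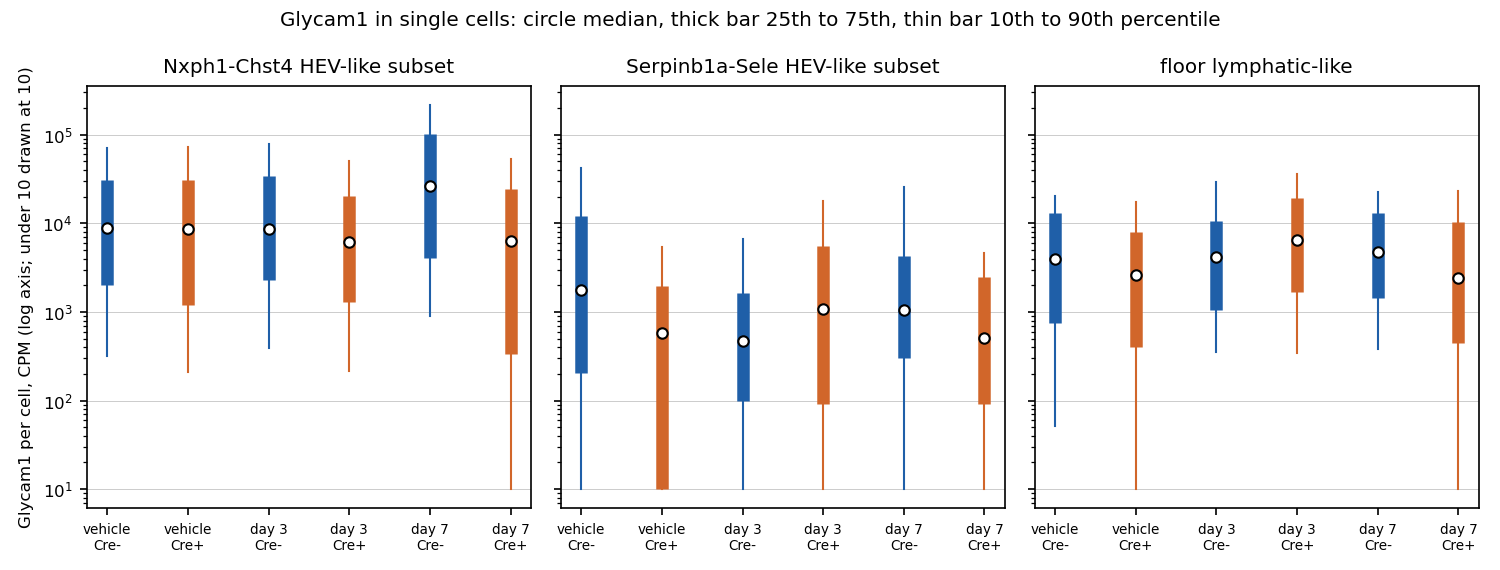
Glycam1 per cell (CPM of the single cell) in the Nxph1-Chst4 and Serpinb1a-Sele subsets of HEV-like cells and in floor lymphatic-like cells, as percentiles over cells for each of the 6 CD31 libraries. The Serpinb1a-Sele subset sits below the Nxph1-Chst4 subset in each library.

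Floor lymphatic-like cells, which line the cortex side of the subcapsular sinus, also carried Glycam1 RNA, at 8223, 6725, 11293, 14503, 10069 and 9129 CPM. In the library labelled Cre-positive of day 3 this exceeded the HEV-like level, and in the other 5 libraries it was lower. The mean difference of HEV-like minus floor was 1.24 on the log2 scale and ran from -0.18 to 2.92. A UMI was seen in 90.1%, 84.2%, 94.9%, 95.7%, 95.1% and 83.5% of floor cells, and in 65.0% to 86.1% after thinning to 1000 UMIs, and no floor cell gave over 10% of its UMIs to the gene. Ceiling lymphatic-like cells of the same sinus were lower than floor cells in 6 of 6 libraries, by a mean of 7.35 on the log2 scale. In all, HEV-like cells held a median of 81.0% of Glycam1 UMIs in cells of a CD31 library (64.2% to 93.5%) and floor cells 14.9% (5.54% to 33.3%).

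Of the listed enzymes for building a homing ligand, 17 were among the genes counted. Most had RNA in both floor and HEV-like cells, but Chst4 and Fut7 were near 0 in the floor class. The sulfotransferase Chst4 averaged 0.348 CPM in floor cells against 114 in HEV-like cells, and the fucosyltransferase Fut7 1.82 against 314. Gcnt1 (25.7 against 142 CPM) and B3gnt3 (7.97 against 46.5 CPM) were present in floor cells but also well below the HEV-like level. Chst2, another sulfotransferase, averaged 222 CPM in floor cells and 171 in HEV-like cells. The sialyltransferases St3gal6 (193 against 380.1) and St3gal4 (175 against 234), the galactosyltransferase B4galt1 (86.9 against 54.8) and the fucosyltransferase Fut4 (10.7 against 12.7) were also found in both.

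RNA set free from broken cells enters every droplet, and for Glycam1 it was abundant. Barcodes with 10 to 100 UMIs, taken as free RNA, held it at 4615, 3165, 13349.8, 1681, 16480 and 1338 CPM. Capillary-like cells measured 66.6, 42.0, 188, 37.1, 229 and 16.9 CPM, beside 80.6, 38.2, 251, 42.9, 234 and 21.6 CPM expected there from free RNA alone. A level counted as above free RNA when the lower bound of its 95% Poisson interval exceeded that expectation, and capillary-like cells were above it in 0 of 6 libraries (2 of 6 with free RNA from barcodes of 2 to 50 UMIs). Arterial-like cells (21.6 to 143 CPM) and B cell-like cells (17.7 to 180.1 CPM) were above it in 0 of 6 as well, although arterial-like cells were in 1 of 6 when the free RNA share came without immunoglobulin genes. Penk-Itm2a cells (11.4 to 168 CPM) were above it in 1 of 6. Prnd-Aplnr cells (51.3 to 167 CPM), Hspb1-Atf3 cells (29.0 to 132 CPM) and Lyve1-Marco lymphatic cells (29.1 to 479.7 CPM) were above it in 4 of 6 each, in 3 of 6 each without immunoglobulin genes, and in 5, 4 and 5 of 6 with barcodes of 2 to 50 UMIs. HEV-like cells exceeded the expectation 99.5-fold to 787-fold with the main estimate of their free RNA share, 1.18% to 4.92%. Without immunoglobulin genes that share was 1.12% to 13.1%, for which folds are not given. HEV-like and floor cells each exceeded the expectation in 6 of 6 libraries under each of 3 estimates of free RNA. The share of free RNA in floor cells was estimated at 0.972% to 55.6%, a range that narrowed to 1.87% to 18.6% without the immunoglobulin genes.

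**Figure D4:**
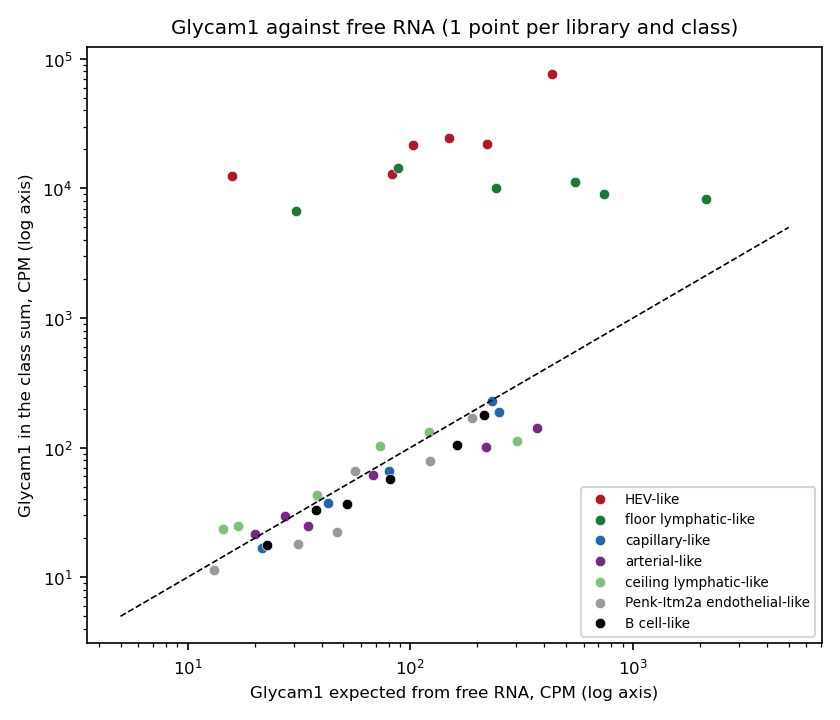
Glycam1 level in a class (CPM, log axis) against the level expected from free RNA (CPM, log axis), 1 point per class and CD31 library, with the line of equality. HEV-like and floor lymphatic-like points stand above the line, and capillary-like, arterial-like and B cell-like points lie near it.

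By label, Glycam1 in HEV-like cells was lower in the Cre-positive library of each pair, 1.14-fold at vehicle, 1.72-fold at day 3 and 6.14-fold at day 7. The difference averaged over treatments was -1.20 on the log2 scale (SE 0.45) and did not pass, with an adjusted p of 1.000 by edgeR's quasi-likelihood test on 6 libraries. In that contrast 0.00869% of genes were called (1 of 11507), and none of the 6 members was, by edgeR or by DESeq2; Glycam1 alone had an unadjusted p under 0.05, 0.0280. With no filter on low counts edgeR called it, at the same -1.20 and an adjusted p of 1.9e-09. This call therefore turned on the filter, and the share of all genes called without the filter is not given here. The Serpinb1a-Sele subset gave -1.73 (SE 0.27, adjusted p = 0.0696 by edgeR) and the Nxph1-Chst4 subset -0.97 (adjusted p = 0.833 by edgeR), where 0.0111% and 0.0568% of genes were called. The mix of subsets differed between libraries: the Nxph1-Chst4 subset was 185 of 380, 233 of 396, 293 of 485, 264 of 734, 470 of 729 and 129 of 291 HEV-like cells. Whether this mix bears on the whole-cluster difference was not tested. Floor cells gave 0.02 for the same contrast, with the Cre-positive library lower in the vehicle and day 7 pairs and higher in the day 3 pair. Whether the HEV-like and floor differences differ from each other was not tested.

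The same contrast was called in 3 classes where Glycam1 lay at or near its free RNA level. It was lower in libraries labelled Cre-positive in capillary-like cells by edgeR (-2.13, SE 0.34, adjusted p = 0.0174; 0.175% of 10850 genes called), but not by DESeq2 (adjusted p = 1.000). It was also lower in arterial-like cells (-1.97, SE 0.22, edgeR adjusted p = 0.0129; 0.0195% of 10238 genes called) and in ceiling lymphatic-like cells (-1.91, SE 0.24, edgeR adjusted p = 0.00376; 0.0358% of 11167 genes called), where it lay above free RNA in 3 of 6 libraries (1 without immunoglobulin genes, 4 with barcodes of 2 to 50 UMIs). Glycam1 in the free RNA was itself 1.46-fold, 7.94-fold and 12.3-fold lower in the Cre-positive library of the vehicle, day 3 and day 7 pair. The capillary-like call was lost by edgeR without the day 3 Cre-negative library (adjusted p = 0.877) or the day 3 Cre-positive library (adjusted p = 0.641), each with -2.02. It was also lost at resolution 2 (-2.16, edgeR adjusted p = 0.0617), and with free RNA subtracted edgeR called no member there. For the arterial-like and ceiling lymphatic-like calls, outcomes under such other settings are not given here.

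Madcam1 (ENSMUSG00000020310, chromosome 10, 79664559 to 79668537, plus strand), the ligand of the gut homing integrin, was a floor lymphatic gene in these nodes. Floor cells measured 329, 243, 418, 397, 395 and 356 CPM, and both vehicle libraries lay below the other 4, while the labels overlapped. A UMI was seen in 70.4%, 56.0%, 67.3%, 78.3%, 71.0% and 68.3% of floor cells and in 0% to 0.208% of B cell-like cells, and after thinning to 1000 UMIs in 17.7% to 28.8% of floor cells. Floor cells held a median of 88.3% of the Madcam1 UMIs of a CD31 library (71.9% to 96.6%). Ceiling cells, at 0.498 to 3.50 CPM, were lower by a mean of 6.98 on the log2 scale. HEV-like cells measured 6.60, 2.74, 7.96, 12.4, 1.16 and 10.1 CPM and lay above free RNA in 5 of 6 libraries. Capillary-like cells measured 20.4, 0.302, 5.47, 3.88, 5.48 and 3.93 CPM, the vehicle Cre-negative library being the highest.

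Reticular stroma was the other site of Madcam1. In the CD45 libraries, marginal or follicular reticular-like cells, which lie under the sinus and in follicles, measured 139, 119, 14.2, 4.34, 97.1 and 114 CPM in the same order of treatments and labels. Both day 3 libraries were far below the other 4. They also held far more cells of this cluster, 908 and 691 against 83, 34, 59 and 163, and a Madcam1 UMI was seen in 7.38% and 3.04% of them. In the other 4 libraries it was seen in 26 of 83, 15 of 34, 13 of 59 and 53 of 163 cells. Whether the kind of cell in this cluster changed was not tested. T-zone reticular-like cells measured 27.5, 96.8, 114, 45.7, 59.1 and 66.9 CPM, from 17 to 92 cells a library. The marginal or follicular and the T-zone clusters held medians of 58.1% (38.9% to 91.5%) and 31.2% (4.72% to 57.9%) of the Madcam1 UMIs in cells of a CD45 library. Glycam1 in T-zone reticular-like cells measured 82.4, 366, 1239, 374, 79.7 and 0 CPM, above free RNA in 5 of 6 libraries. The 0 is of 254260 UMIs, with a 95% Poisson upper bound of 14.5 CPM. T-zone reticular-like cells held a median of 15.0% (0% to 95.8%) of the Glycam1 UMIs in cells of a CD45 library. How many of these cells held a Glycam1 UMI is not given here.

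Cd34 (ENSMUSG00000016494, chromosome 1, 194938819 to 194961279, plus strand), a marker of blood vessels and of some fibroblasts, was the steadiest member in HEV-like cells. It overlaps Gm16897 on the other strand, and how counting treated strand is not stated. HEV-like cells measured 535, 548, 532, 565, 489 and 586 CPM. Capillary-like cells measured 215, 173, 180.1, 156, 173 and 202 CPM, below the HEV-like level in 6 of 6 libraries. Prnd-Aplnr cells measured 784, 783, 730.1, 741, 788 and 777 CPM, a range that did not overlap either. Hspb1-Atf3 cells (695 to 777 CPM) overlapped the Prnd-Aplnr cells, and Penk-Itm2a cells (583 to 658 CPM) lay between those and most HEV-like values. Arterial-like cells were more spread, at 532, 316, 646, 717, 490.0 and 569.8 CPM, and venous-like cells measured 344 to 574 CPM.

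Lymphatic cells had little Cd34. Ceiling cells measured 24.1, 11.3, 37.3, 33.9, 15.6 and 10.1 CPM, with both day 3 libraries above the others. The day 3 difference in ceiling cells was 1.08 on the log2 scale and did not pass (edgeR adjusted p = 0.181). Floor cells measured 8.07, 3.91, 6.69, 25.6, 3.73 and 6.48 CPM and were above free RNA in 1 of 6 libraries. Lyve1-Marco cells held 0.897 to 5.35 CPM.

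Among fibroblasts of the CD45 libraries, Cd34 marked the adventitial-like cells, which surround larger vessels. They measured 937, 1072, 663, 841, 875 and 904 CPM. Mgp-Fbln1 fibroblast-like cells were lower, at 230.4, 344, 294, 293, 239 and 165 CPM, and Cxcl12-Lepr fibroblast-like cells lower again, at 22.7 to 103 CPM. Marginal or follicular reticular-like cells held 0 to 27.6 CPM. Summed over all fibroblast-like cells, Cd34 measured 352, 363, 95.5, 103, 157 and 158 CPM, so both day 3 libraries were the lowest and both vehicle libraries the highest.

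That summed difference at day 3 was called, at -1.81 on the log2 scale (SE 0.15, edgeR adjusted p = 0.00331), in a contrast where 11.2% of 14965 genes were called. It was lost without the day 3 Cre-negative library (-1.82, edgeR adjusted p = 0.148) or the day 3 Cre-positive library (-1.78, edgeR adjusted p = 0.0903). Marginal or follicular reticular-like cells, which are low in Cd34, were the cluster whose number was high in both day 3 libraries. Whether their number bears on the summed difference was not tested. Without that cluster the difference was -0.51 (edgeR adjusted p = 0.315; 0 of 13467 genes called by edgeR, 2 of the 5 members tested at an unadjusted p under 0.05). Adventitial-like cells alone gave -0.53 (edgeR adjusted p = 0.389) and Mgp-Fbln1 cells alone -0.02 (edgeR adjusted p = 0.989; 0.103% of genes called). At day 7 the summed difference of -1.20 did not pass by edgeR (adjusted p = 0.0596), which called 0.0735% of genes. It did pass by DESeq2 (adjusted p = 9.3e-08), for which the share of all genes called at day 7 is not given. At day 3 DESeq2 called 1824 of 14094 genes in this class.

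Podxl (ENSMUSG00000025608, chromosome 6, 31519488 to 31563981, minus strand), a relative of Cd34, was highest in arterial-like cells among the classes compared, at 722, 743, 719, 626, 744 and 773 CPM. Capillary-like cells measured 263, 351, 356, 330.5, 326 and 237 CPM and did not overlap them. Penk-Itm2a cells lay between, at 403 to 575 CPM, and Hspb1-Atf3 cells (297 to 389 CPM) and Prnd-Aplnr cells (264 to 314 CPM) overlapped the capillary-like range. HEV-like cells were low, at 53.6, 49.5, 59.0, 72.4, 32.3 and 55.6 CPM, and below venous-like cells (81.2 to 203 CPM; HEV minus venous -1.24 on the log2 scale). Of the HEV-like subsets, the Nxph1-Chst4 subset was lower in 6 of 6 libraries (mean difference -1.06). Podxl in ceiling lymphatic-like cells measured 162, 189, 278, 218, 201 and 188 CPM, above their floor counterparts (7.46 to 40.1 CPM) in 6 of 6 libraries, and Lyve1-Marco cells measured 38.1 to 90.3 CPM. Fibroblast-like cells held at most 0.452 CPM.

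Emcn (ENSMUSG00000054690, chromosome 3, 137341067 to 137432185, plus strand), a sialomucin of venules and capillaries, was highest in Penk-Itm2a cells, at 1321, 1458, 1166, 1193, 1407 and 1200.1 CPM. Venous-like cells (836 to 1169 CPM), Hspb1-Atf3 cells (806 to 1195 CPM) and Prnd-Aplnr cells (836 to 1078 CPM) came next and overlapped one another. Capillary-like cells measured 666, 710.0, 756, 711, 708 and 563 CPM, and arterial-like cells, at 487 to 652 CPM, overlapped them. HEV-like cells measured 387, 555, 481, 475, 454 and 414 CPM. They were below venous-like cells (HEV minus venous -1.26 on the log2 scale) and below capillary-like cells as given above. Ceiling lymphatic-like cells measured 135, 174, 147, 161, 178 and 87.8 CPM and floor cells 3.71 to 29.0 CPM, and Lyve1-Marco cells a median of 9.93 CPM. Neither treatment nor label contrast of Emcn or Podxl was called in any class fitted.

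Cd300lg (ENSMUSG00000017309, chromosome 11, 102041509 to 102055620, plus strand) was above all other classes in capillary-like cells, at 1359, 1099, 1113, 1067, 1267 and 1292 CPM. Penk-Itm2a cells measured 709.6, 643, 509, 492, 733 and 646 CPM, and Hspb1-Atf3 cells 606, 558, 496, 399, 694 and 566 CPM, ranges that overlapped. Arterial-like cells measured 377, 373, 287, 252, 349.6 and 344 CPM. HEV-like cells, at 394, 398, 192, 195, 358 and 392 CPM, overlapped the arterial-like cells. Venous-like cells, at 79.3, 115, 107, 75.6, 192 and 326 CPM, were below HEV-like cells (HEV minus venous 1.25 on the log2 scale). Ceiling lymphatic-like cells measured 96.8, 104, 39.3, 53.8, 99.2 and 84.1 CPM and Lyve1-Marco cells 119, 158, 69.3, 59.2, 136 and 108 CPM.

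At day 3 after oxazolone, Cd300lg fell in HEV-like cells, and its day 7 values lay near those of vehicle. It was 2.05-fold lower than vehicle in the Cre-negative pair and 2.04-fold lower in the Cre-positive pair, and the 2 day 3 libraries did not overlap the other 4. The difference was -1.03 on the log2 scale (SE 0.14) with an adjusted p of 0.0468 by edgeR, and DESeq2 also called it. It was the 1 member of 6 called there, where 0.243% of 11507 genes were called and 0.0869% were called lower. It fell in both subsets of the HEV-like cluster. The Nxph1-Chst4 subset measured 348, 394, 169, 183, 333 and 326 CPM (-1.09, SE 0.17, edgeR adjusted p = 0.0111; 2.76% of 10564 genes called). The Serpinb1a-Sele subset measured 505, 518, 272, 227, 492 and 485 CPM (-1.04, SE 0.14, edgeR adjusted p = 0.00572; 3.04% of 9013 genes called). The call in the whole cluster was near the threshold: it was lost without the vehicle Cre-positive library (adjusted p = 0.125), the day 3 Cre-negative library (0.475) or the day 3 Cre-positive library (0.322) by edgeR, with differences of -1.03, -1.01 and -1.05. The day 7 difference was -0.02.

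Most other vessel classes had a lower Cd300lg level at day 3 too, by various amounts. Venous-like cells did not, being higher in the Cre-negative pair (107 against 79.3 CPM) and lower in the Cre-positive one (75.6 against 115), with a difference of 0.11 (edgeR adjusted p = 0.947). Capillary-like cells were 1.22-fold and 1.03-fold lower in the Cre-negative and Cre-positive pair, a difference of -0.14 that did not pass (edgeR adjusted p = 0.867; 0.258% of genes called). Arterial-like cells were 1.31-fold and 1.48-fold lower (-0.43, edgeR adjusted p = 0.133; 2.88% of genes called), and Prnd-Aplnr cells 1.47-fold and 1.39-fold lower. Penk-Itm2a cells were 1.39-fold and 1.31-fold lower, and Hspb1-Atf3 cells 1.22-fold and 1.40-fold lower. Ceiling lymphatic-like cells were 2.46-fold and 1.93-fold lower (-1.07, edgeR adjusted p = 0.127; 0.215% of genes called). Lyve1-Marco cells were 1.72-fold and 2.67-fold lower, and summed lymphatic cells 2.38-fold and 1.76-fold lower (edgeR unadjusted p = 0.00147, adjusted p = 0.585), which passed with no filter on low counts (adjusted p = 0.0204). With the filter edgeR called 0 of 12929 genes in summed lymphatic cells, and the share called without it is not given. Summed blood endothelial-like cells gave -0.52, which did not pass by edgeR (adjusted p = 0.110) and did by DESeq2. There edgeR called 0 of 14581 genes, and the share of all genes called by DESeq2 is not given. Free RNA held Cd300lg at 183, 192, 124, 118, 246 and 209 CPM, so it too was lowest at day 3. Whether the HEV-like difference exceeds those of the other classes was not tested.

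**Figure D5:**
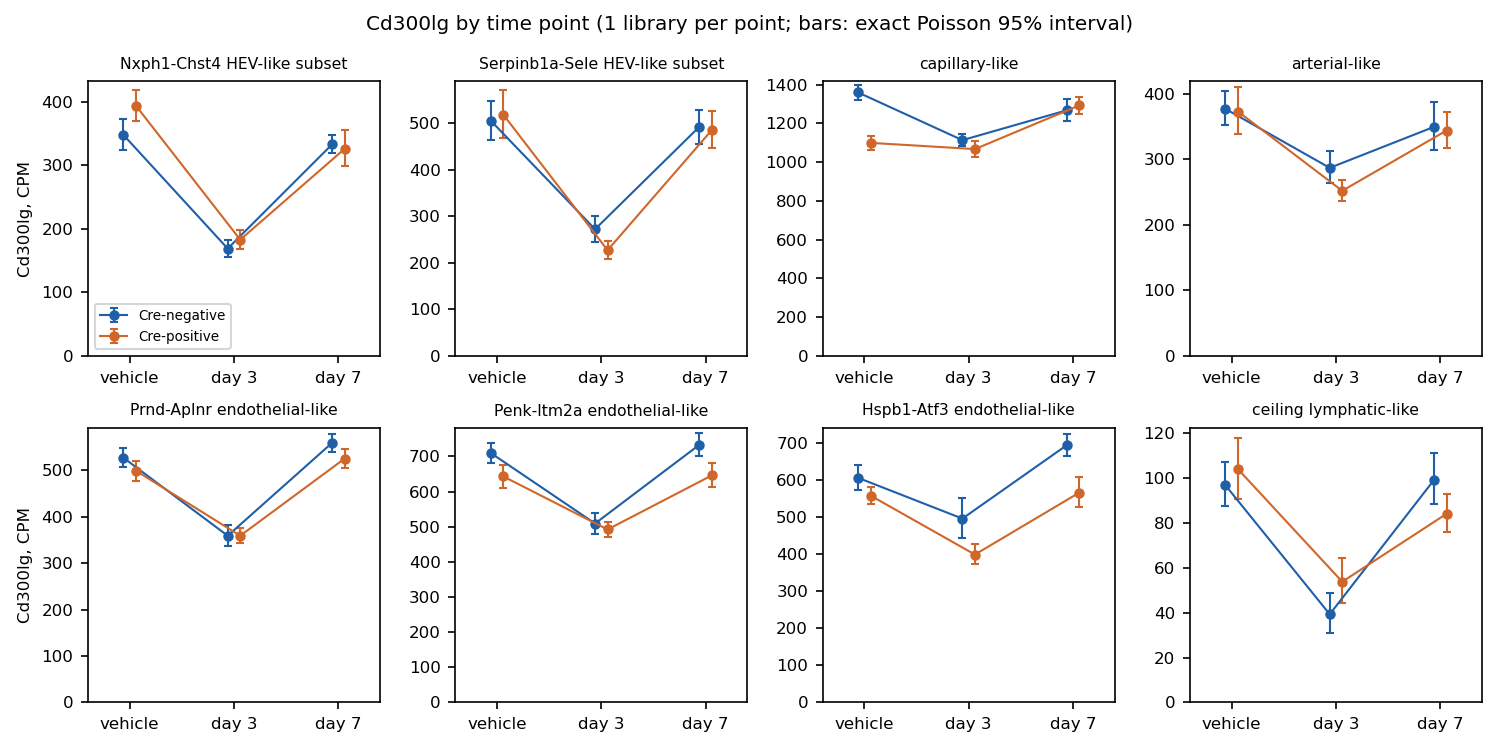
Cd300lg level (CPM) at vehicle, day 3 and day 7 in 8 cell classes, with separate lines for libraries labelled Cre-negative and Cre-positive and bars for 95% Poisson intervals, which cover counting error alone. In both subsets of the HEV-like cluster the day 3 points lie below the points of vehicle and day 7.

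By label, no member was called by edgeR or DESeq2 in summed blood endothelial-like cells, where 0.00686% of genes were, or in summed lymphatic cells, where 0.00773% were; none had an unadjusted edgeR p under 0.05 in either. Cd34, the 1 member tested in Mgp-Fbln1 cells, was not called by label there (0.0373% of genes were). At day 7 no member was called by edgeR in any class fitted; among the members tested, 0 of 6 in HEV-like cells and 0 of 6 in capillary-like cells had an unadjusted p under 0.05, and 1 of 5 had in arterial-like cells and 1 of 5 in fibroblast-like cells. DESeq2 called Cd34 in fibroblast-like cells at day 7 and no other member at that time. The share of genes called by edgeR at day 7 was 0.0369% in capillary-like cells, 0.0735% in fibroblast-like cells and 0 in the other classes fitted at the main resolution; in venous-like cells, a split of the HEV-like cluster, it was 1 of 5197 genes and no member. In floor cells no contrast called any of the 6 members by edgeR or DESeq2, and at day 3 edgeR called 0.00928% of genes there. Glycam1 had 0.81 at day 3 there (edgeR unadjusted p = 0.0307, adjusted p = 0.782) and Madcam1 0.54 (edgeR unadjusted p = 0.0435, adjusted p = 0.787).

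The genes that act with the scaffolds were read in HEV-like cells from 3 lists. Of the enzymes that build the homing epitope, 17 were tested and 0 were called by edgeR in any contrast of the whole cluster. At day 3, 5 had an unadjusted edgeR p under 0.05, as had 2515 of all 11507 genes. DESeq2 called 1 of the 9 it tested, Fut7, as lower, beside 304 of 3253 genes. EdgeR called Fut7 lower at day 3 in the Serpinb1a-Sele subset, where it called 3.04% of 9013 genes. The median of the 17 differences at day 3 was 0.07 on the log2 scale, beside 0.00 over all genes tested. The sialyltransferase St3gal6 measured 287 to 455 CPM and St3gal4 194 to 279 CPM. Fut7 measured 358, 342, 257, 196, 373 and 356 CPM, with both day 3 libraries below the other 4 (-0.64, SE 0.15, edgeR adjusted p = 0.0924). Chst2 measured 133 to 192 CPM.

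Of the 9 other mucin-type scaffolds listed, edgeR tested 5 in HEV-like cells, and DESeq2 tested only 3 at day 3. Of those tested, 0 were called by either tool. At day 3, 2 had an unadjusted edgeR p under 0.05, beside the same 2515 of 11507 genes. The adhesion molecule Mcam measured 57.7 to 103 CPM, Cd24a 39.6 to 103 CPM, Cd164 51.0 to 61.1 CPM and the hyaluronan receptor Cd44 6.45 to 13.1 CPM. At day 3, Cd24a had a difference of -0.87 (edgeR adjusted p = 0.147) and Cd44 of -0.80 (edgeR adjusted p = 0.142). Of the linkers that tie CD34 and podocalyxin to the cell cortex, edgeR tested 6, and DESeq2 tested only 3 at day 3. Of those tested, none was called by either tool or had an unadjusted edgeR p under 0.05. Moesin (Msn) measured 500.3 to 651 CPM, radixin (Rdx) 176 to 237 CPM and the adaptor Crkl 15.5 to 21.9 CPM. Slc9a3r2, which binds the tail of podocalyxin, measured 87.6 to 152 CPM in HEV-like cells and 940.3 to 1102 CPM in arterial-like cells, where Podxl was also high.

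Integrin chains were read in lymphocytes of the CD45 libraries. Itgb7, a chain of the Madcam1 receptor, measured 149 to 167 CPM in T cell-like cells and 44.3 to 65.1 CPM in B cell-like cells, and its partner Itga4 108 to 143 and 122 to 184 CPM. Itgal, a chain of LFA-1, measured 81.5 to 117 CPM in T cell-like cells and 30.4 to 39.8 CPM in B cell-like cells.

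Across 98 sums of class and library in the CD31 fraction, which came from 23 classes and share libraries, pairs of members differed in correlation. Cd34 and Emcn went together (Pearson's r = 0.958 of log2 levels), as did Emcn and Cd300lg (0.914) and Podxl and Cd300lg (0.905). Glycam1 and Madcam1, whose promoters are printed above, had r = 0.673. Between HEV-like and floor cells they went opposite ways, with mean differences (HEV-like minus floor) of 1.24 and -5.74 on the log2 scale. The 3 genes most like Glycam1 were Hs3st6 (0.815), Nxph1 (0.808) and Bpifb5 (0.803), and those most like Madcam1 were C1ql3 (0.868), Mme (0.862) and Rgs4 (0.852). For Podxl they were Slc9a3r2 (0.971), Clic5 (0.959) and Sox18 (0.958), the first of which is the linker named above. Cd34 was most like Tmem47 (0.969), Mmp15 (0.967) and Plscr2 (0.965). Emcn was most like Palmd (0.969), Plcb1 (0.965) and Plpp3 (0.954), and Cd300lg most like Adgrl4 (0.968), Ushbp1 (0.967) and Kank3 (0.954). These are descriptions over sums that are not independent, so no p is given.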

How the data were processed

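Single-cell libraries were made with a 10x Genomics 3′ kit of V2 chemistry, per the labels' protocols. The authors deposited UMI counts per gene and barcode, made with Cell Ranger 7.0.1 on build mm10 per the submitters' processing notes, while the file headers name Cell Ranger version 4. How reads were assigned to strands is not given in the sources used here. The deposited matrices list all barcodes with counts. An added feature, mRFP, listed in 4 libraries, was left out.

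A barcode was taken as a cell from 1000 UMIs and 500 genes up, unless over 10% of its UMIs were mitochondrial (5984 to 11636 per library, median UMIs 3367 to 6354, total UMIs per library 36724887 to 76187731). Doublets were scored with Scrublet in scanpy 1.11.5, and the highest scores, 0.8% per 1000 barcodes, were removed (4.78% to 9.31%). In 2 CD31 libraries the removed barcodes had lower median UMIs than those kept (3899.5 against 4327 and 2349 against 3425). Any pair of libraries shared at most 31 cell barcodes, and at most 0.380% of the smaller library. Each fraction was clustered with 2000 variable genes, 30 components, 20 neighbours and Leiden resolution 1 (leidenalg 0.10.2), without the members, their lists, Atg12 and sex-linked genes. One cluster of few UMIs, with 74.1% of its 3077 cells in the day 3 library labelled Cre-positive, was left outside all classes.

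Counts were summed per library and class. Treatments and labels were compared with edgeR 4.0.16 (glmQLFit and glmQLFTest in R 4.3.3, label plus treatment, 6 libraries, 2 residual degrees of freedom, any interaction counted as error), adjusted by Benjamini-Hochberg over all genes tested. DESeq2 1.42.0 was an alternative. Genes with low counts were filtered before the fit, so a member was tested only where it passed. Classes were compared on log2(CPM + 1) with an exact two-sided sign-flip test over 6 libraries (scipy 1.17.1). Intervals are exact 95% Poisson intervals and cover counting error only. The free RNA share of an endothelial or stromal class came from 10 lymphocyte genes, or 7 without immunoglobulin. For B cell-like cells and other immune classes it came from a list of stromal genes instead. A further estimate took free RNA from barcodes with 2 to 50 UMIs, with the same marker genes. The planned class of fibroblasts in the CD31 libraries held too few cells and was replaced by the CD45 libraries, and the venous-like class existed at resolution 2 alone. Scripts were tested on simulated data. The members and lists were chosen with earlier results of these data known. Genes were named by rule: the 6 members, with the 4 members of a list that had the highest mean in HEV-like cells and the 3 genes most correlated with a member among genes of at least 10 CPM in its highest class. Chst4, B4galt1, Fut4, Gcnt1 and B3gnt3 were named outside it, after their values were seen. Coordinates are from GENCODE M21 for GRCm38, and 4 of the 6 members matched the RefSeq promoter table. One gene of the list of lymphocyte receptors is not reported here.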

Additional observations from a re-analysis of the deposited data

Results flagged for a closer look

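In 11 comparisons the 2 labels moved in opposite directions from vehicle, with 95% counting intervals that, before rounding, did not include 0. These 11 were picked by that rule from the ratios of the members over many classes and both days. No share over all comparisons or all genes was computed, so the count has no background. Each value is the log2 ratio of 1 library to 1 library, its interval covers counting error alone, and the difference between labels was not tested.

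Glycam1 in HEV-like cells at day 7 had a log2 ratio of 1.63 (95% interval 1.62 to 1.64) under the Cre-negative label, a 3.10-fold higher level, and -0.80 (-0.81 to -0.78) under the Cre-positive label, a 1.74-fold lower level. Glycam1 in the free RNA was also highest in the Cre-negative library of day 7, at 16480 CPM, and lowest in the Cre-positive one, at 1338 CPM.

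The other ratios are given with the Cre-negative label first. In HEV-like cells Cd34 had -0.13 and 0.10 at day 7, and Emcn had 0.32 and -0.22 at day 3 and 0.23 and -0.42 at day 7. The UMI totals behind these ratios include Glycam1, which reached 76236 CPM in HEV-like cells of the day 7 Cre-negative library. The Cd34 intervals lay close to 0, from -0.21 to -0.05 under the Cre-negative label and from 0.00 to 0.19 under the Cre-positive label. They were not recomputed without Glycam1, so whether they then leave out 0 was not tested. In capillary-like cells at day 7, Cd34 had -0.32 and 0.22, Podxl 0.31 and -0.57, and Cd300lg -0.10 and 0.23. In ceiling lymphatic-like cells at day 7, Emcn had 0.40 and -0.99. Of these 7 pairs, the ratio of Emcn in ceiling cells had the widest gap between labels. In fibroblasts of the CD45 libraries, Cd34 had 0.35 and -0.23 in Mgp-Fbln1 cells at day 3. In Cxcl12-Lepr cells it had 0.77 and -1.36 at day 3, and 1.22 and -2.19 at day 7.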

How the results depend on the processing

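Counts of members called depended on the filter for low counts. With no filter, 1 member was called in HEV-like cells by label (0 with the filter), 2 at day 3 (1), 2 in capillary-like cells by label (1), 1 there at day 3 (0), 1 in lymphatic endothelial-like cells at day 3 (0), 2 in fibroblast-like cells at day 3 (1) and 1 at day 7 (0). Numbers of all genes called with no filter are given below for HEV-like and fibroblast-like cells at day 3 and capillary-like cells by label only. The other counts with no filter have no background here. By DESeq2, 0 were called in capillary-like cells by label and 1 in fibroblast-like cells at day 7. The capillary-like count by label was also 0 with free RNA subtracted, at resolution 2 and without the day 3 libraries, and 2 without the day 7 libraries. Ceiling lymphatic-like cells alone gave 1 by label against 0 for all lymphatic cells. The fibroblast-like count at day 3 was 0 without the marginal or follicular reticular cluster, in adventitial-like cells alone and in Mgp-Fbln1 cells alone. Leaving out 1 library at a time gave 0 to 1 in HEV-like cells at day 3. It gave 0 to 2 in capillary-like cells by label and at day 3, and 0 to 1 there at day 7. It gave 0 to 1 in lymphatic cells at day 3, and 0 to 3 and 0 to 1 in fibroblast-like cells at days 3 and 7. No result reversed. Over all genes, HEV-like cells at day 3 had 28 called by edgeR, 304 by DESeq2, 1277 with no filter, 174 with doublets kept, 65 at 2000 UMIs, 51 with free RNA subtracted and 0 to 585 without 1 library. Capillary-like cells by label had 19 by edgeR, 5 by DESeq2, 84 with no filter, 8 at resolution 2, 0 without the day 3, 78 without the day 7 and 31 without the vehicle libraries, and 0 to 108 without 1 library. Fibroblast-like cells at day 3 had 1683, against 2614 with no filter, 981 with free RNA subtracted and 0 to 2918 without 1 library. The cause was not tested. For a block on replicate number, no such numbers are in the labels. No paired analysis was possible because of this for treatments and labels beyond the additive fit, while classes were compared within libraries. The arterial-like difference in Madcam1 did not pass with cells of at least 2000 UMIs (adjusted p = 0.136, exact sign-flip test), and that in Emcn passed with doublets kept. Of the repeats for single genes under other settings, 778 kept their side of the threshold, 11 gained and 7 lost a call, and 5 moved; of those without 1 library, 563 kept it, 16 gained and 7 lost a call, and 8 moved. With 2 residual degrees of freedom, a member not called is not shown to be unchanged.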
